A study of Mus musculus with 6 samples.

Results

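The mouse cytochrome P450 genes were described as the regions of the deposited H3K9me3 table whose gene symbol reads Cyp, a family number, 1 subfamily letter and a member number. The rule took 807 of the 202553 regions (0.398%), which carry 93 gene symbols. Of these regions, 415 belong to 46 Cyp2 genes, 123 to 8 Cyp3 genes, 104 to 19 Cyp4 genes and 165 to 20 genes of other families. Cyp2ab1 and Cyp51, whose symbols have another form, fall outside it. The mark was profiled by CUT&Tag, in which an antibody against H3K9me3 directs a transposase that cuts and tags the DNA beside it. The tissue was frozen quadriceps femoris, a thigh muscle, with 3 libraries from Prr14-KO mice (replicates 4, 5 and 7) and 3 from Prr14-WT mice (replicates 3, 4 and 8). PRR14 is known for tying heterochromatin to the lamina at the nuclear edge, and the series title names mechanotransduction and myofiber identity as its subject. Whether the deletion was body-wide or limited to a cell type, which part of Prr14 was removed, and the age, sex and strain of the mice are not stated. Separate mice for separate libraries are not stated either, so p-values measure the spread between these libraries, which may be technical.

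Cytochrome P450 enzymes are haem proteins that oxidise drugs, plant compounds, fatty acids, sterols, retinoids and vitamin D. In rodents the families that handle foreign compounds and fatty acids sit in dense clusters of tandem duplicates and are made mainly in liver, gut, kidney and lung, under nuclear receptors such as CAR, PXR and PPAR alpha. The steroid, bile acid and vitamin enzymes are mostly single genes with their own tissues. Skeletal muscle is not a main site of these clusters' expression, and H3K9me3 is a mark of heterochromatin that is found over many clustered, silent gene families.

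Library totals ran from 4324444 to 4707466 counts in knockouts and from 4636898 to 4756133 in wild types. At Prr14 itself 1 region held 14, 56 and 54 counts in knockout replicates 4, 5 and 7, against 10, 18 and 10 in wild-type replicates 3, 4 and 8. With the deleted part not given, this checks no label. H3K9me3 does not measure expression, so the tissue label was looked at only through the position of the mark. Of 12 skeletal muscle marker genes 10 had a region, 28 of their 41 regions lying in a promoter or gene, and their summed level was 128 to 179 counts per 1000000 (CPM) in knockouts and 112 to 155 CPM in wild types. Ttn alone held 18 of these 41 regions and 17 of the 28 in a promoter or gene. Its level was 57.2 ± 26.9 CPM in knockouts and 52.8 ± 10.4 CPM in wild types (SD, n = 3 each). Of 10 hepatocyte marker genes 8 had a region, with 8 of 162 regions in a promoter or gene, and 641 to 770 CPM in knockouts against 679 to 710 CPM in wild types. Apob alone held 142 of these 162 regions and most of that level, at 623 ± 57.4 CPM in knockouts and 618 ± 19.7 CPM in wild types (SD, n = 3 each), so the sum describes that gene. In bulk muscle, a mark in fewer nuclei and less of it per nucleus cannot be told apart.

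Few of the marked sites reached a P450 start site. RefSeq (GRCm38.p6) promoter windows, which run from 250 bases before to 50 bases after a start, were found for 70 of the 93 symbols. Of their 80 windows, 11 touched a deposited region (13.8%), against 11.8% of all 32851 windows. Touched windows belong to Cyp27a1, Cyp2d40, Cyp4f13, Cyp2j12, Cyp2j11, Cyp2j8, Cyp2b10, Cyp2b23, Cyp2b19, Cyp1a1 and Cyp11a1. The windows of 3 Cyp2b genes and of Cyp1a1 are printed because a region covers most of each and because their counts are compared between genotypes further on. Cyp2b10 is the classical phenobarbital-induced gene of mouse liver, Cyp2b19 is known from skin keratinocytes, and Cyp1a1 is the classical target of the aryl hydrocarbon receptor. Capitals mark the bases inside the deposited region. Whether the table counts positions from 0 or 1 is not given, so an edge may lie 1 base off. The windows lie at chr7:25897408-25897707 (plus strand), chr7:26686381-26686680 (minus strand), chr7:26756892-26757191 (plus strand) and chr9:57697363-57697662 (plus strand).
Cyp2b10: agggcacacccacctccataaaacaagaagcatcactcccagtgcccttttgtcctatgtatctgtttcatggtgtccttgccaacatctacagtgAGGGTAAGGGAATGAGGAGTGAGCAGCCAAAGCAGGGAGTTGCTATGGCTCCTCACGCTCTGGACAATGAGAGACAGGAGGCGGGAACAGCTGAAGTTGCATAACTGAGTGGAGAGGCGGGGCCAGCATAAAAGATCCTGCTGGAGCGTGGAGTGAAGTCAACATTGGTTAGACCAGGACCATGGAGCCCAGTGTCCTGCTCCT
Cyp2b23: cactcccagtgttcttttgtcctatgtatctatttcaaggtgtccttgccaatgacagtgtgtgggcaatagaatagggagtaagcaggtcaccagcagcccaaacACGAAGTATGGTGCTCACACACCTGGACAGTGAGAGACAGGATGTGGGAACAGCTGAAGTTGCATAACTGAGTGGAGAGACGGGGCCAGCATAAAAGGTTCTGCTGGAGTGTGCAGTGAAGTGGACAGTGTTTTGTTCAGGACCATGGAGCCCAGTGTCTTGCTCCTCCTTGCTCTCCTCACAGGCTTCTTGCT
Cyp2b19: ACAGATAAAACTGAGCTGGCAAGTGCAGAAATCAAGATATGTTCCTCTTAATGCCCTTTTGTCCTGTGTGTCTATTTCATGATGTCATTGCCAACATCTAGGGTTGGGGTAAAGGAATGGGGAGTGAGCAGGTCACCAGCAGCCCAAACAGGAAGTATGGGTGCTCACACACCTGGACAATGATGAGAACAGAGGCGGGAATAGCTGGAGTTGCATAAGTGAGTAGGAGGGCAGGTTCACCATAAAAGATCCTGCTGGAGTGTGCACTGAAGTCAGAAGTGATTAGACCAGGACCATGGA
Cyp1a1: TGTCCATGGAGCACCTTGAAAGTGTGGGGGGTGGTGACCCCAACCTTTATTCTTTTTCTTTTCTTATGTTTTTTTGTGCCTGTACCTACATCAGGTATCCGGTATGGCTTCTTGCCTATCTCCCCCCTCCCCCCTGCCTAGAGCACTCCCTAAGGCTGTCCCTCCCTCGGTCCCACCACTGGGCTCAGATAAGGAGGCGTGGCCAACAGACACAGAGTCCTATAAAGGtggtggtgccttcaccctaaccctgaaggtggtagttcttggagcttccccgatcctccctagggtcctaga

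The region covers 204 of 300 bases in Cyp2b10, 194 in Cyp2b23, 300 in Cyp2b19 and 228 in Cyp1a1. The letters CATAAAA, searched on both strands after the sequences had been read, begin 28 bases before the start in Cyp2b10, 55 before it in Cyp2b23 and 10 before it in Cyp2b19. They occur in 4 of the 80 P450 windows and in 4.19% of all windows. The letters TATAAA occur in 32 of the 80 P450 windows and in 13.6% of all windows, and in Cyp1a1 they begin 30 bases before the start. The letters GCGTG, the core to which the aryl hydrocarbon receptor and its partner bind, occur in 18.8% against 32.4%, and in Cyp1a1 begin 54 bases before the start. P450 windows held a median of 2.5 CG pairs, against 7 for all windows, and the touched P450 windows 3, against 17 for all touched windows. A match of letters is no evidence of binding.

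The tandem copies limit what short reads can tell apart. In global alignments of these windows within each cluster, 12 pairs were over 90% identical: 9 in Cyp3a, 2 in the Cyp2 cluster of chromosome 7 and 1 in Cyp2c. The closest pair, Cyp2b13 and Cyp2b9 at 99.3%, is printed to show how little separates the copies. Their windows lie at chr7:26061245-26061544 and chr7:26173159-26173458, both on the plus strand, and capitals mark the 2 bases that differ.
Cyp2b13: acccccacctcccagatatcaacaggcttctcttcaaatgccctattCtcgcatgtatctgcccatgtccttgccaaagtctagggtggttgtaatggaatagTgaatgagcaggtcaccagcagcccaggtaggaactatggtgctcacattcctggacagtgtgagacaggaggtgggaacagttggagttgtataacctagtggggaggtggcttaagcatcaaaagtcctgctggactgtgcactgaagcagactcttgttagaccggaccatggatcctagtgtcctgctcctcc
Cyp2b9: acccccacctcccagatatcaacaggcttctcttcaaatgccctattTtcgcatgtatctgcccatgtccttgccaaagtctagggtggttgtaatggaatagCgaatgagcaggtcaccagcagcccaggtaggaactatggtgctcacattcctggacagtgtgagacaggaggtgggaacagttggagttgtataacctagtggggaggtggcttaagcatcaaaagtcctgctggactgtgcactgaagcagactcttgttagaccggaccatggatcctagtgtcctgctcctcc

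Reads from such stretches can be placed on either copy, and no source used here says how repeated alignments were handled. Other close pairs were Cyp3a41a and Cyp3a41b (98.3%), Cyp2a4 and Cyp2a5 (98.0%), and Cyp3a25 and Cyp3a59 (96.0%). None of the windows of these pairs, or of Cyp2b13 and Cyp2b9, touched a deposited region. The sequences under their counted regions were not compared. The split of counts between the copies may therefore be uncertain, while sums over a cluster would be less affected.

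The mark lay across the clusters rather than at single genes. In the Cyp3a cluster on chromosome 5 (145314368 to 146119942, GRCm38), which holds the main drug-oxidising genes of mouse liver, all deposited regions of the span summed to 985 CPM per Mb. The Cyp2d cluster on chromosome 15 (82379653 to 82804962) reached 724 CPM per Mb, and the Cyp2c cluster on chromosome 19 (38990624 to 40213218) 719. The Cyp2abfgst cluster on chromosome 7 (25855273 to 27146121), named here for the Cyp2 subfamilies in it, reached 575 CPM per Mb, and the Cyp4abx cluster on chromosome 4 (115115968 to 115650401) 555. The Cyp2j cluster on chromosome 4 (96048636 to 96721521) reached 491, and the Cyp4f cluster on chromosome 17 (32449228 to 32952726) 423. The median 1 Mb bin held 318 CPM (quartiles 214 and 457). A span cut at its first and last region is denser by construction than a fixed bin, so the fixed bins that hold most of each cluster were set against these quartiles. Those of Cyp2c (757 CPM in knockouts, 758 in wild types), Cyp3a (754 and 738 CPM in knockouts and wild types) and Cyp2abfgst (578 and 590) lay above the upper quartile. Those of Cyp2d (370 and 416 CPM in knockouts and wild types), Cyp2j (407 and 411) and Cyp4abx (409 and 410) lay between the median and the upper quartile, and that of Cyp4f (307 and 297) lay below the median. Regions stood at 15.3 per 100 kb in Cyp3a, 13.4 in Cyp2d and 9.33 in Cyp4f, and covered 8.32%, 7.09% and 4.03% of the span. These densities describe the table as called, and no test was made of them.

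**Figure D1:**
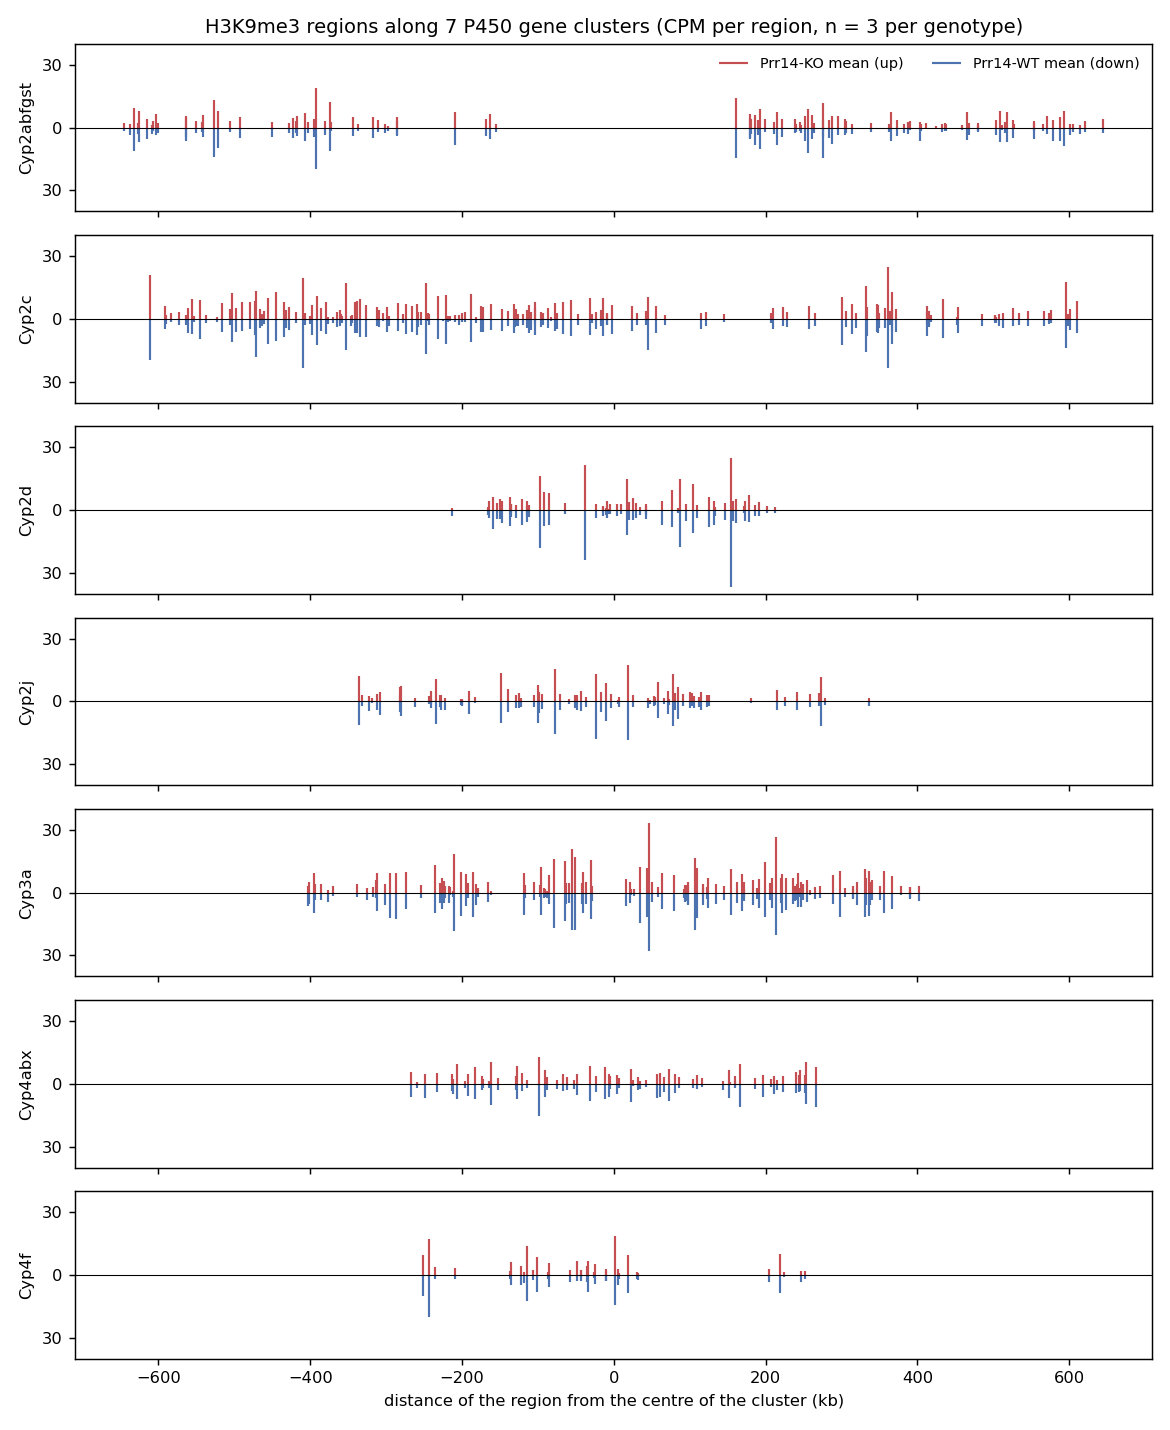
H3K9me3 level of each region in CPM (vertical) against its distance from the centre of its cluster in kb, for 7 P450 clusters, as the mean of 3 Prr14-KO libraries (up, red) and of 3 Prr14-WT libraries (down, blue). Regions recur along the spans, most densely in Cyp3a at 15.3 per 100 kb, and the profiles of both genotypes mirror each other.

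Single P450 regions were of ordinary size and strength. Their median width was 353 bp, against 318 bp over all regions, and their median level 10.6 CPM per kb, against 10.1. The highest reached 30.9 CPM, which 583 regions of the series exceeded. They lay nearer to a start site than regions in general, at a median of 23.7 kb against 86.8 kb. By RefSeq spans, 226 regions lay in the gene whose symbol they carry, 82 in another P450 gene or pseudogene, 77 in a gene outside the family and 422 in no gene. By the authors' classes, 65.8% of P450 regions were intergenic, against 68.1% of all regions, and 21.2% intronic, against 22.6%. Within 1 kb of a start site lay 4.21% against 3.8%, and in exons 3.22% against 2.06%. The class 2 to 3 kb from a start held 2.97% against 1.22%. The Cyp3a cluster was the least genic, with 106 of 123 regions intergenic, while in Cyp2c 61 of 161 were intronic and in Cyp2j 28 of 74. Of the 93 genes, 12 had no region in their promoter or body, among them Cyp3a41a and Cyp3a41b, for which 16 and 15 intergenic regions were listed.

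**Figure D2:**
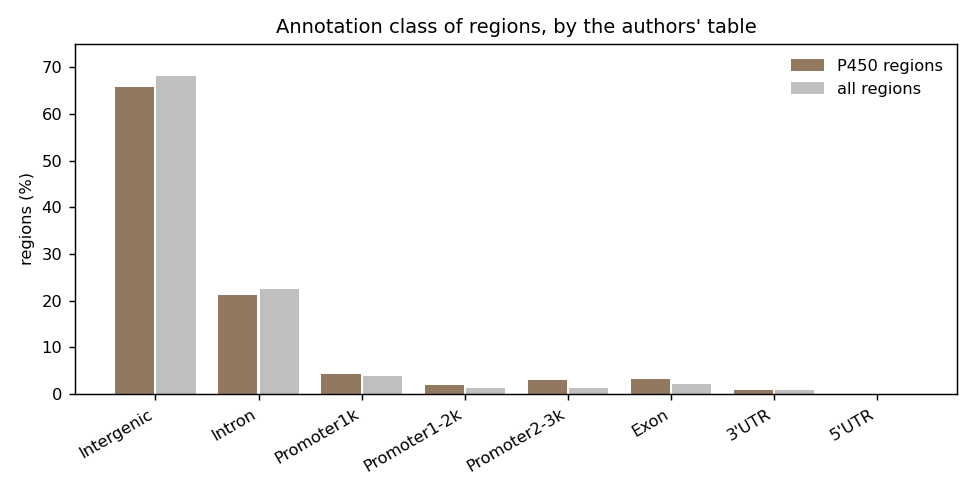
Percentage of regions in each annotation class of the authors' table, for the 807 P450 regions (brown) and all 202553 regions (grey). Intergenic regions make up 65.8% and 68.1%, and the classes near start sites and in exons take slightly larger shares among P450 regions.

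Per covered kb, most P450 genes held much the same level. The mean over the 6 libraries had a median of 10.5 CPM per kb over the 93 gene sums, against 9.82 over all gene symbols, and ran from 4.64 in Cyp4f17 to 22.5 in Cyp11b2. Cyp11b2, the aldosterone synthase gene of the adrenal cortex, and Cyp1b1, which oxidises oestrogens and polycyclic hydrocarbons (22.4), stood above all others, with Cyp24a1, which inactivates vitamin D, next at 17.1. An intergenic region of Cyp1b1 65.9 kb from its start site had the highest level per kb among those named here: chr17:79780679-79781231 held 49.0 CPM per kb, with 141, 76 and 140 counts in knockouts and 133, 128 and 127 in wild types. At the low end Cyp1a1 held 4.81 and Cyp4f13 5.25. RefSeq lists 97 protein-coding symbols of this form, and 5 of them had no region in the table: Cyp27b1, Cyp2d10, Cyp2d11, Cyp3a13 and Cyp4v3.

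Against this background, no P450 gene or region passed the test for a difference between Prr14-KO and Prr14-WT muscle. Of 645 P450 regions with enough counts to be tested (79.9%), 0 passed an edgeR adjusted p of 0.05, and of all 153789 regions tested 0.013% did (0.00325% higher and 0.00975% lower in knockouts). DESeq2 and limma-voom also passed 0 P450 regions, and 0.00975% and 0.0111% of all. At an unadjusted p under 0.05 there were 22 P450 regions by edgeR, 3.41% against 3.86% of all. There were 23 by DESeq2 (3.57%) and 19 by limma-voom (2.95%), with no share over all regions given here. Of the 22, 12 had a positive log2 change (1.86%, against 2.07% of all regions) and 10 a negative one (1.55%, against 1.78%). The smallest edgeR adjusted p of a P450 region was 0.998. All 3 knockouts lay above all 3 wild types in 26 regions (4.03%, against 4.7% over all regions), and below them in 39 (6.05%, against 4.91%). The median log2 change of the regions was -0.02, with quartiles of -0.29 and 0.28, and over all regions it was 0.00.

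Counts summed over all regions of a gene gave the same picture with less error. Of 88 P450 gene sums tested, 0 passed edgeR's adjusted p of 0.05, as did 0.0393% of all 15265. At an unadjusted p under 0.05 there were 3 by edgeR (3.41%, against 3.58% of all). There were 2 by DESeq2 (2.27%) and 3 by limma-voom (3.41%), with no share over all genes given here. The 3 by edgeR were 1 with a positive log2 change (1.14%, against 2.06%) and 2 with a negative one (2.27%, against 1.51%). DESeq2 and limma-voom passed 0 P450 genes after adjustment, and 0.0459% and 0.0524% of all genes. All 3 knockouts lay above all 3 wild types in 2 genes, Cyp2c70 and Cyp7a1 (2.27%, against 4.3% of all), and below them in 2, Cyp4a32 and Cyp39a1 (2.27%, against 4.19%). The median log2 change was -0.02, against 0.00 over all genes, the lowest -0.45 and the highest 0.84, and 36 were positive and 52 negative. The share of negative sums over all genes is not given here. With a library left out, the P450 median ran from -0.11 without knockout replicate 4 to 0.03 without wild-type replicate 4. The median standard error was 0.17, and for 78 of the 88 genes the 95% interval stayed within 1 log2 unit of no change on both sides. Cyp2s1, Cyp2d22, Cyp2j6, Cyp17a1 and Cyp2c23 had too few counts to be tested. Each had a single region, with at most 23 counts in any library.

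**Figure D3:**
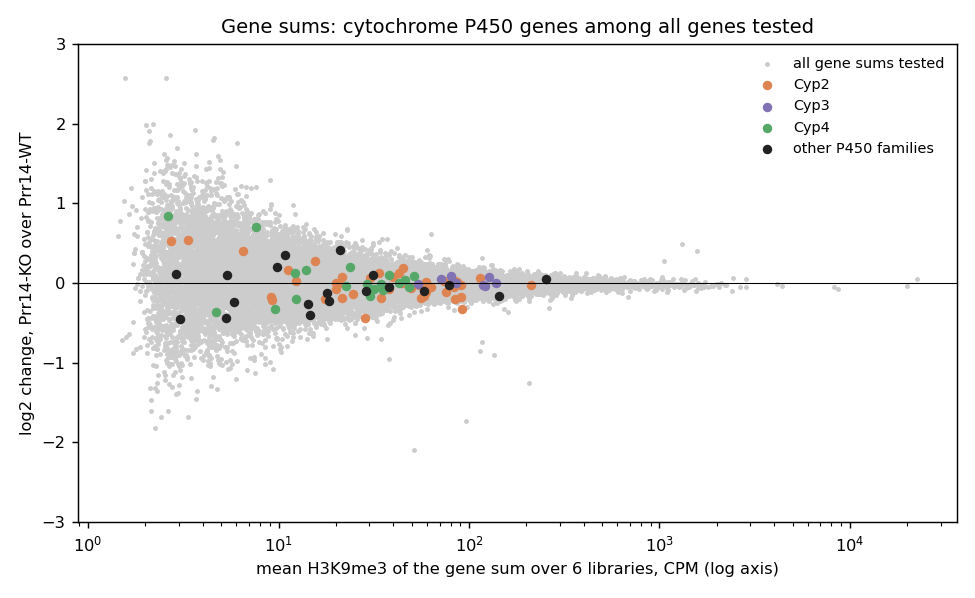
Log2 change of the summed H3K9me3 counts of each gene, Prr14-KO over Prr14-WT, against its mean level over 6 libraries in CPM (log axis), with all 15265 genes tested in grey and 88 P450 genes coloured by family. The P450 genes lie between -0.45 and 0.84, inside the grey cloud at each level.

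The share of the mark held by the whole family overlapped between genotypes. P450 regions held 0.427%, 0.399% and 0.391% of the counts of knockout replicates 4, 5 and 7, against 0.412%, 0.426% and 0.393% in wild-type replicates 3, 4 and 8. The groups overlapped, with means of 0.406% ± 0.0189 in knockouts and 0.411% ± 0.0165 in wild types (SD, n = 3 each). Scaled by the TMM factors, the sum was 4070 ± 213 CPM in knockouts and 4093 ± 163 CPM in wild types, a log2 difference of -0.01. A sum over chosen members gets no test.

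Knockouts and wild types overlapped in all 7 clusters. The Cyp2c regions summed to 883 ± 69.4 CPM in knockouts and 876 ± 75.3 CPM in wild types, and the Cyp2abfgst regions to 466 ± 26.2 and 475 ± 28.0 CPM in knockouts and wild types (SD, n = 3 each). The Cyp2j regions summed to 327 ± 10.9 CPM in knockouts and 334 ± 15.3 CPM in wild types. The Cyp3a regions gave 803 ± 95.9 CPM in knockouts, of which replicate 4 alone had 913, and 785 ± 50.02 CPM in wild types. That library was the highest of all 6 also in Cyp2c, at 963 CPM. The Cyp4abx regions summed to 297 ± 22.8 CPM in knockouts and 296 ± 15.3 CPM in wild types, and the Cyp4f regions to 172 ± 22.9 and 164 ± 6.74 CPM in knockouts and wild types. The log2 differences of these 6 clusters lay between -0.03 and 0.07.

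**Figure D4:**
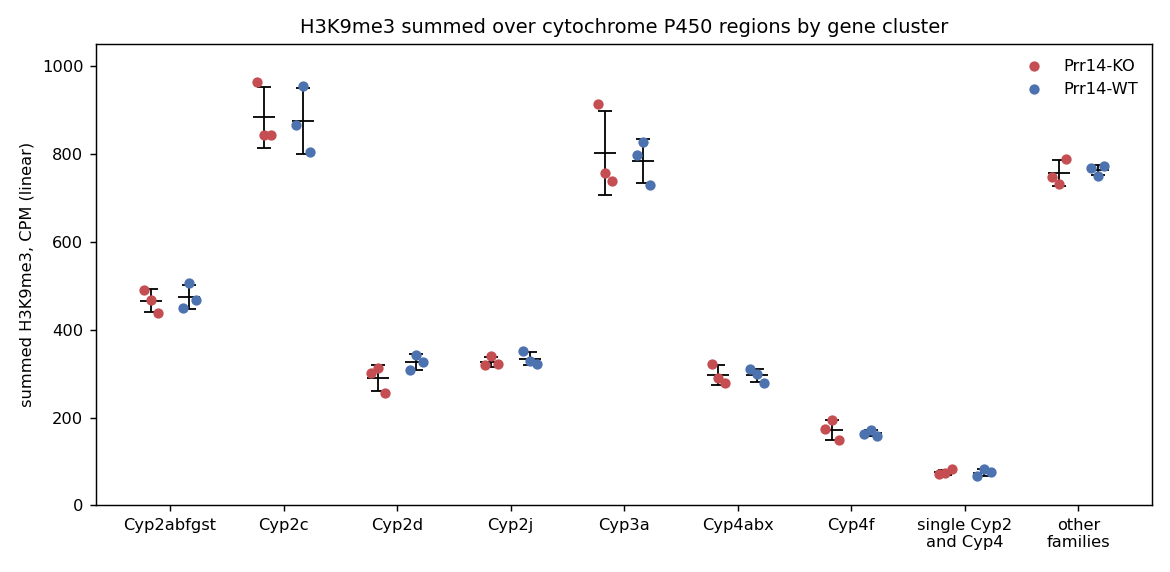
Summed H3K9me3 level in CPM on a linear axis for each P450 cluster, for the single Cyp2 and Cyp4 genes and for the other families, with 1 point per library (Prr14-KO red, left; Prr14-WT blue, right), and bars for the mean and SD of 3. The groups overlap everywhere, and Cyp2d shows the widest gap between means, 290 against 326 CPM.

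Cyp2d was the cluster with the largest difference between the means. Its regions held 302, 313 and 256 CPM in knockout replicates 4, 5 and 7, against 308, 343 and 327 CPM in wild-type replicates 3, 4 and 8. Knockout replicate 5 lay above wild-type replicate 3, so the groups overlapped, and the log2 difference was -0.17. Without knockout replicate 7, the lowest library, it was -0.09, and without the region that has the most counts -0.12. The 1 Mb bin from 82 Mb on chromosome 15, which holds the cluster, had a log2 change of -0.17 (SE 0.06, unadjusted p = 0.00459, edgeR adjusted p = 1.00), while 1.6% of all 2630 bins reached an unadjusted p under 0.05, 0.798% in each direction. Of the 9 bins with at least 30 P450 regions, 0 passed the adjusted threshold by edgeR, DESeq2 or limma-voom, and 1, this one, an unadjusted edgeR p of 0.05. Of all bins, 0.076% passed by edgeR, 0.152% by DESeq2 and 0.114% by limma-voom. In 1 of the 9, the bin from 18 Mb on chromosome 3 that holds the Cyp7b1 regions, all knockouts lay above all wild types (2.93% of all bins did), at 466, 469 and 478 CPM against 459, 455 and 415 CPM in wild types, and in 0 below them (2.66% of all).

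Of the Cyp2d regions tested, 28 of 43 had a log2 change below 0, against 333 of all 645 P450 regions tested. The cluster was singled out for its lower sum, and its regions share the same libraries, so these region counts add no separate support. The median log2 change of the 43 was -0.24, against 0.00 over all regions. All knockouts lay below all wild types in 6 of the 43 and above in 1. Over all regions tested these shares were 4.91% and 4.7%. The gene with the smallest p of all P450 sums was Cyp2d40, at 91.9, 88.8 and 63.1 CPM in knockouts against 105, 111 and 89.2 CPM in wild types. Knockout replicate 4 lay above wild-type replicate 8, and the log2 change was -0.32 (SE 0.12, unadjusted p = 0.00676, edgeR adjusted p = 1.00). Over libraries left out in turn it ran from -0.43 to -0.17. Its intergenic region chr15:82745512-82747574, 17.6 kb from the start site, was the strongest P450 region of the table. It held 146, 131 and 58 counts in knockouts, against 186, 195 and 138 in wild types (log2 change -0.56, SE 0.19, unadjusted p = 0.00259, edgeR adjusted p = 0.998). With promoter and genic regions alone, which are 2 of its 13, the Cyp2d40 sum had a log2 change of -0.05. Cyp2d9, whose product hydroxylates testosterone in male mouse liver, had 78.8 ± 5.83 CPM in knockouts and 90.5 ± 9.99 CPM in wild types (log2 change -0.20, SE 0.11). Cyp2d34 had a log2 change of -0.11 (SE 0.12) and Cyp2d12 of -0.06 (SE 0.14), while Cyp2d26, with few counts, had 0.40 (SE 0.40).

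In the chromosome 7 cluster, Cyp2f2, a gene of lung club cells, came second among the lower sums. It held 25.6, 25.3 and 21.4 CPM in knockouts, against 24.9, 38.7 and 34.5 CPM in wild types, with overlap at wild-type replicate 3 (log2 change -0.44, SE 0.18, unadjusted p = 0.0196, edgeR adjusted p = 1.00). Its promoter and genic part, which is 1 of its 7 regions, went the other way, at 0.39. Cyp2b10, with the most counts of that cluster, had 82.3 ± 5.71 CPM in knockouts and 84.9 ± 1.28 CPM in wild types (log2 change -0.05, SE 0.11). Cyp2b13 had a log2 change of 0.01 (SE 0.13) and Cyp2b23 of -0.05 (SE 0.13). Cyp2a4 and Cyp2a5, which metabolise steroids and coumarin, had -0.00 (SE 0.22) and -0.07 (SE 0.21). Cyp2g1, known from olfactory mucosa, had -0.14 (SE 0.19).

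The regions on the 3 Cyp2b promoters printed above differed in the sign of their change. The Cyp2b10 region chr7:25897504-25897835 held 31, 26 and 33 counts in knockouts, against 13, 12 and 23 in wild types, and the groups did not overlap (log2 change 0.98, SE 0.41, unadjusted p = 0.0157, edgeR adjusted p = 0.998). The Cyp2b23 region chr7:26686090-26686574 held 25, 25 and 32 counts in knockouts, against 38, 33 and 43 in wild types (log2 change -0.39, SE 0.33). The Cyp2b19 region chr7:26756571-26757588 held 50, 38 and 32 counts in knockouts, against 60, 65 and 47 in wild types (log2 change -0.44, SE 0.27). Both of these overlapped after scaling, and none of the 3 passed edgeR's adjusted threshold. The Cyp1a1 region chr9:57696959-57697590 held 6, 14 and 14 counts in knockouts, against 34, 6 and 9 in wild types, where replicate 3 alone stood high (log2 change -0.42, SE 0.55). The other touched promoters held at most 35 counts in any library, and 5 of them, at Cyp2d40, Cyp4f13, Cyp2j12, Cyp2j11 and Cyp11a1, had too few for a test.

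Genes of the Cyp2c cluster, whose products oxidise drugs and arachidonic acid in liver, gut and kidney, lay close to no change. Cyp2c29, with 36 regions, had 210 ± 28.6 CPM in knockouts and 213 ± 21.9 CPM in wild types (log2 change -0.02, SE 0.09), which bounds its change to between -0.19 and 0.15 at 95%. Cyp2c66 had a log2 change of 0.07 (SE 0.10) and Cyp2c37 of -0.02 (SE 0.11). The strongest region of the cluster, chr19:39961518-39964203 near Cyp2c37, held 126, 103 and 103 counts in knockouts, against 106, 108 and 115 in wild types (log2 change 0.09). Cyp2c70, which makes muricholic acids in mouse bile, had 48.0, 51.7 and 43.9 CPM in knockouts, all above 39.9, 42.8 and 43.0 CPM in wild types (log2 change 0.19, SE 0.15, unadjusted p = 0.198). The Cyp2j genes, epoxygenases of arachidonic acid, gave -0.17 for Cyp2j11 (SE 0.11), 0.02 for Cyp2j8 (SE 0.12) and -0.02 for Cyp2j7 (SE 0.14).

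The 8 Cyp3a genes had the narrowest range, from -0.04 to 0.09 on the log2 scale. Cyp3a11, the chief drug-oxidising Cyp3a enzyme of adult mouse liver and a PXR target, had 154, 120 and 116 CPM in knockouts, against 123, 126 and 122 CPM in wild types (log2 change 0.07, SE 0.10). The value of knockout replicate 4 lay above, and those of replicates 5 and 7 below, all wild types. Cyp3a41a, expressed mainly in female liver, had 139 ± 28.2 CPM in knockouts and 139 ± 14.9 CPM in wild types (log2 change 0.00, SE 0.10). Cyp3a44, also mainly of female liver, had -0.04 (SE 0.10), and Cyp3a16, a gene of fetal and newborn liver, -0.02 (SE 0.10). Single sites varied more. Among the 12 regions listed for Cyp3a57 were 3 intergenic sites named for their small p. Those at chr5:145339964-145340594 and chr5:145314368-145314716 had log2 changes of -1.65 and -1.10, and that at chr5:145402973-145403696 had 1.13. The gene sum over all 12 regions was at -0.02 (SE 0.14). The strongest Cyp3a site, chr5:145763231-145764838 near Cyp3a44, held 166, 144 and 132 counts in knockouts, against 141, 137 and 114 in wild types, and after scaling the groups did not overlap (log2 change 0.25, SE 0.19). A site near Cyp3a11, chr5:145929853-145931692, held 157, 120 and 82 counts in knockouts, against 96, 117 and 75 in wild types (log2 change 0.39). None of the 5 sites passed edgeR's adjusted threshold (adjusted p = 0.998 each).

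Cyp4 enzymes hydroxylate fatty acids, leukotrienes and prostaglandins. Cyp4a14, a classical PPAR alpha target of liver, had 10.7, 9.56 and 8.20 CPM in knockouts, against 10.5, 4.15 and 2.78 CPM in wild types, where replicate 3 lay among the knockouts (log2 change 0.71, SE 0.37, unadjusted p = 0.0623). Without wild-type replicate 3 the log2 change was 1.45, and without wild-type replicate 8 it was 0.36. Cyp4a10, regulated in the same way, had -0.33 (SE 0.31). Cyp4a12a and Cyp4a12b, the male-type enzymes that make the vasoconstrictor eicosanoid of kidney, had -0.05 (SE 0.14) and -0.00 (SE 0.15), and Cyp4a29 had 0.09 (SE 0.14). Cyp4f17, with 1 region and at most 20 counts per library, had the highest log2 change of the family and a wide interval (0.84, from -0.46 to 2.14). Cyp4f15 had 0.04 (SE 0.15), Cyp4f37 -0.01 (SE 0.17), Cyp4f39, needed for skin barrier lipids, -0.08 (SE 0.17), and Cyp4f18, a leukotriene hydroxylase of neutrophils, -0.02 (SE 0.18).

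**Figure D5:**
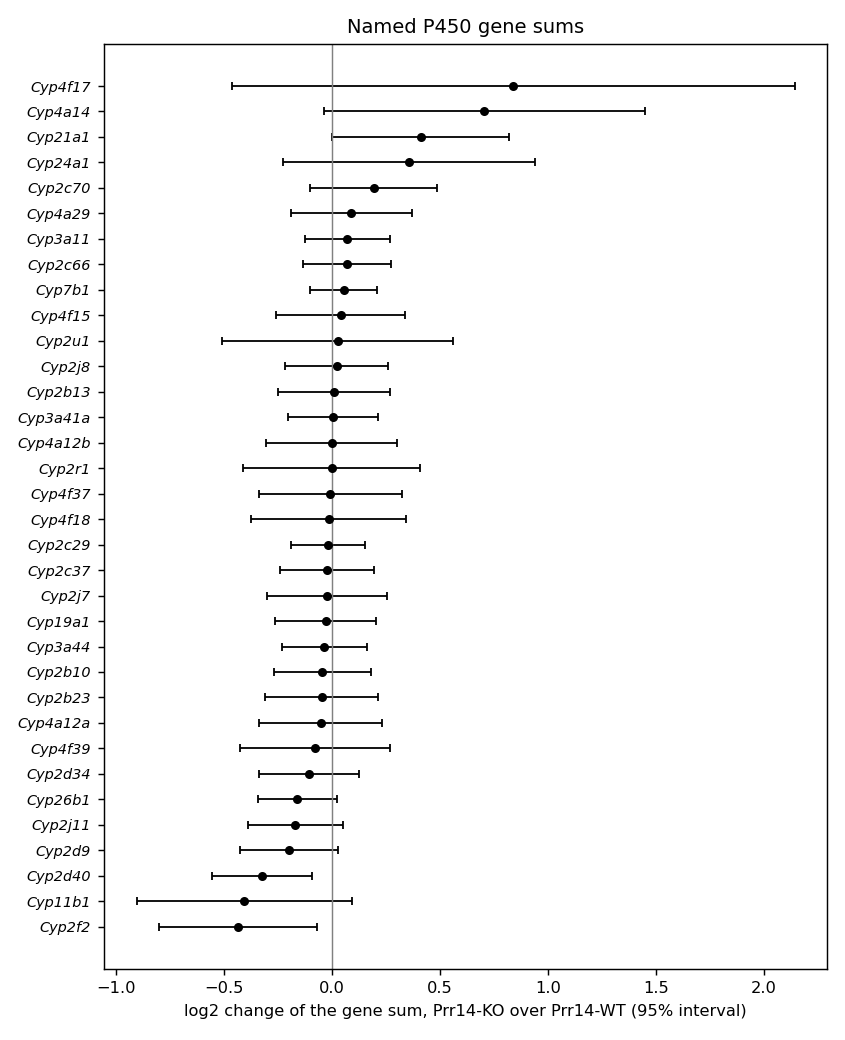
Log2 change of the summed H3K9me3 counts, Prr14-KO over Prr14-WT, for the P450 genes with the most counts per cluster and those with the smallest p in each direction; points are edgeR estimates and bars their 95% intervals. The intervals of Cyp2d40 and Cyp2f2 lie below 0 and that of Cyp21a1 from 0.00 to 0.82 before adjustment, while all others cross 0.

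Among the single-gene families, the bile acid and cholesterol hydroxylases all carried the mark, and 0 of 6 passed the test. Their gene sums had a median log2 change of 0.08, against 0.00 over all genes. Cyp7a1, the rate-limiting enzyme of bile acid synthesis, had 10.3, 10.2 and 10.9 CPM in knockouts, all above 9.65, 7.65 and 10.1 CPM in wild types (log2 change 0.20, SE 0.31). Cyp7b1, an oxysterol hydroxylase of the alternative bile acid route, had the most regions of any P450 gene, 55, at 260 ± 12.7 CPM in knockouts and 250 ± 12.1 CPM in wild types (log2 change 0.05, SE 0.08). Most of these regions lay outside the gene, and 8 in its promoter or body. Cyp8b1, which sets the share of cholic acid, had 0.10 (SE 0.45) and Cyp27a1, the mitochondrial sterol hydroxylase, 0.11 (SE 0.66), both on few counts. Cyp46a1, the cholesterol hydroxylase of neurons, had -0.23 (SE 0.22). Cyp39a1, which acts on its product, had 17.5, 17.1 and 16.8 CPM in knockouts, all below 19.9, 18.1 and 18 CPM in wild types (log2 change -0.12, SE 0.22).

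Of 6 genes of steroid hormone synthesis 5 were tested and 0 passed, with a median log2 change of -0.09. Cyp21a1, the adrenal steroid hydroxylase, had the smallest p among the higher sums, at 27.2, 20.5 and 24.6 CPM in knockouts against 20.6, 16.8 and 16.9 CPM in wild types. The groups met at knockout replicate 5 and wild-type replicate 3 (log2 change 0.41, SE 0.21, unadjusted p = 0.0491, edgeR adjusted p = 1.00). Its promoter and genic part, which is 1 of its 5 regions, was at -0.01. Cyp11b1, which makes corticosterone, had 12.6 ± 3.44 CPM in knockouts and 16.7 ± 1.70 CPM in wild types (log2 change -0.41, SE 0.25). Cyp11b2 had -0.09 (SE 0.18), Cyp11a1, the first enzyme of the route, -0.44 (SE 0.45) on few counts, and Cyp19a1, aromatase, -0.03 (SE 0.12).

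Of the retinoic acid and vitamin D enzymes 5 of 6 had regions and 0 passed the test. Cyp26b1, which clears retinoic acid, had 136 ± 9.22 CPM in knockouts and 152 ± 12.7 CPM in wild types (log2 change -0.16, SE 0.09, unadjusted p = 0.0863). Its relatives Cyp26a1 and Cyp26c1 had -0.04 (SE 0.16) and 0.11 (SE 0.17). Cyp24a1 had 12.2 ± 1.35 CPM in knockouts and 9.48 ± 2.10 CPM in wild types (log2 change 0.36, SE 0.29), and Cyp2r1, which activates vitamin D in liver, -0.00 (SE 0.21). Cyp2u1, a fatty acid hydroxylase outside the clusters, had 0.03 (SE 0.27). The 3 genes induced through the aryl hydrocarbon receptor had log2 changes of -0.45 for Cyp1a1 (SE 0.63), -0.23 for Cyp1a2 (SE 0.43) and -0.10 for Cyp1b1 (SE 0.14). All 3 overlapped between genotypes.

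The single regions with the smallest p were scattered over the families. The highest log2 changes among them were 1.36 at chr3:18465637-18465935, listed for Cyp7b1, with 34, 24 and 16 counts in knockouts against 10, 12 and 8 in wild types, and 1.28 at chr6:84320354-84321010, listed for Cyp26b1, with 22, 35 and 19 against 12, 13 and 8 counts in knockouts and wild types. Both lie over 200 kb from the start site in no RefSeq gene. A region in the pseudogene Cyp4f38-ps, chr17:32652353-32653014, held 10, 39 and 42 counts in knockouts, against 15, 18 and 8 in wild types (log2 change 1.24). An exonic region of Cyp4b1, the lung form of the family, at chr4:115628610-115629095 held 37, 17 and 36 counts in knockouts, against 16, 20 and 9 in wild types (log2 change 1.07). In these last 2, knockout replicate 4 or 5 lay among the wild types. On the lower side, chr3:18264005-18264220 of Cyp7b1 and chr7:26903912-26904527 of Cyp2a22 had log2 changes of -1.38 and -1.07. Each of these 6 had an edgeR adjusted p of 0.998. The 2 Cyp7b1 sites, which had opposite signs, both lie outside the gene and share its symbol in the authors' table.

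None of the 5 promoter, exon and 3'UTR regions with the most counts passed the adjusted threshold of edgeR, and their log2 changes had both signs. Upstream of Cyp2d12, chr15:82552970-82554645 held 104, 104 and 82 counts in knockouts, against 129, 111 and 96 in wild types (log2 change -0.13, SE 0.20). At the 3' end of Cyp4f15, chr17:32701924-32703005 held 100, 87 and 65 counts in knockouts, against 63, 69 and 66 in wild types, without overlap after scaling (log2 change 0.42, SE 0.22). The Cyp2j11 exon region chr4:96306599-96307921 had 15.6 ± 1.54 CPM in knockouts and 15.6 ± 1.96 CPM in wild types (log2 change -0.00, SE 0.23). The region near the start of Cyp2c67 had -0.48 (SE 0.25), with values from -0.81 without knockout replicate 4 to -0.28 without wild-type replicate 4. The region near the start of Cyp2j7 had 0.35 (SE 0.25), with 0.08 without knockout replicate 5, 0.11 without wild-type replicate 8 and 0.54 without knockout replicate 4.

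The partners and regulators of the P450 enzymes gave no call either. Of 8 electron donors and haem-handling partners 5 had a region, and 0 were called by edgeR. Por, the reductase that feeds electrons to the microsomal enzymes, had a log2 change of 0.26 (SE 0.26), and Fdx1, the ferredoxin of the mitochondrial ones, -0.36 (SE 0.18, unadjusted p = 0.0476). Of 13 xenobiotic and sterol receptors 10 had a region, 9 were tested and 0 called, with Nr1i2, which encodes PXR, at -0.06 (SE 0.19) and Ppara at 0.24 (SE 0.24). Nr1i3, which encodes CAR, held at most 19 counts in any library and was not tested. Of 85 genes of conjugation and other drug metabolism 74 had a region, 72 were tested and 0 called by edgeR. At an unadjusted edgeR p under 0.05 there were 3 of the 72, against 3.58% of all gene sums. The 3 were Ugt1a1, a glucuronosyltransferase for bilirubin, at -0.36 (SE 0.09), Sult1b1, a sulfotransferase, at -0.50 (SE 0.16) and Ces2g, a carboxylesterase, at 0.62 (SE 0.23). Their edgeR adjusted p-values were 0.176, 1.00 and 1.00. The medians of these lists were 0.01, -0.02 and -0.01 on the log2 scale, against 0.00 over all gene sums.

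The labels name no spike-in, so a gain or loss shared by all regions would be scaled away. Leaving out knockout replicate 4 moved the median P450 gene sum to -0.11, against -0.01 over all genes, and brought the smallest adjusted p of a P450 gene to 0.139, for Cyp2d40. That library held the most P450 counts of the 3 knockouts, and its part in the result was not tested further.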

How the data were processed

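H3K9me3 CUT&Tag libraries of quadriceps femoris were compared between 3 Prr14-KO and 3 Prr14-WT samples, grouped by the genotype labels. Per the submitters' processing notes, reads were handled with tools that include BWA, MACS2, Trimmomatic, bedtools, deepTools and DESeq2 1.6.3 on GRCm38, with no settings listed. It is not stated if peak calling pooled the libraries. The deposited table holds whole-number counts per region, read as raw counts. The authors also deposited a normalised signal, a log2 fold change, p-values and a score per region, per the file headers, and these were not used. Coordinates are those of the table.

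Regions without a symbol (681, 0.536% of counts) were left out of gene sums. In R 4.3.3, counts of all regions, of sums per symbol and of sums per 1 Mb bin were tested with edgeR 4.0.16: filterByExpr (minimum count 10, minimum total 15), TMM scaling, a robust quasi-likelihood fit and Benjamini-Hochberg adjustment over all features tested, at 0.05. The depth, 4324444 to 4756133 counts per library, gave a median standard error of 0.46 for the log2 change of a region and 0.22 for a gene sum. CPM of regions and clusters are relative to all counts, and CPM of genes to counts with a symbol. Genes in a cluster are at most 1000000 bases from the next member. Alternatives were RLE factors, library totals, other filters, DESeq2 1.42.0, limma-voom 3.58.1, promoter and genic regions only, and each library left out. The fits were tested on simulated data. Windows were aligned with Biopython 1.88.

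The members and lists were chosen with earlier results of these data known. Genes named in the text are the 3 with the most counts per cluster, the 5 sums and 5 regions with the smallest p in each direction, the 5 regions and the 5 promoter, exon or UTR regions with the most counts, and members of role lists. Others were named after their values were seen.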

Additional observations from a re-analysis of the deposited data

How the results depend on the processing

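No P450 region or gene sum passed the adjusted threshold of 0.05 under RLE factors, library totals, either filter, DESeq2, limma-voom, promoter and genic regions only (gene sums) or any library left out, nor at an adjusted p of 0.10. Over all genes, 6 sums passed, and 6 to 18 with a library left out, the 18 without knockout replicate 4. Over all bins 2 passed, 4 by DESeq2, and 2 to 6 with a library left out, the 6 again without knockout replicate 4. The log2 difference of the P450 sum, -0.01, ran from -0.06 to 0.02 with a library left out.

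With promoter and genic regions only, the signs of the leading higher gene sum and of a leading lower one turned: Cyp21a1 was at -0.01, against 0.41 with all regions, and Cyp2f2 at 0.39, against -0.44. That setting left a single region for each, 1 of 5 for Cyp21a1 and 1 of 7 for Cyp2f2. Under the same setting, added for cluster sums after seeing the data, Cyp2j turned to 0.06 from -0.03, while Cyp3a kept its sign at 0.23, against 0.03, and Cyp4f at 0.19, against 0.07. Other reversals were of values near 0. By limma-voom the Cyp2j11 exon region was at 0.00, and the chromosome 19 bin from 39 Mb was at 0.00 with library totals and with no filter. With a library left out, the Cyp1b1 site ran from -0.20 to 0.18, the Cyp2j11 exon region from -0.11 to 0.07, and the bins of Cyp2c from -0.08 to 0.08, of Cyp3a from -0.06 to 0.09, of Cyp2j from -0.04 to 0.01, of Cyp2abfgst from -0.08 to 0.01, of Cyp4abx from -0.06 to 0.04, of Cyp4f from -0.02 to 0.13 and of Cyp26b1 (chromosome 6) from -0.09 to 0.00. The cause was not tested.

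No paired analysis was possible because the groups share a single replicate number, 4. Counts limit single regions most: their median standard error of 0.43 makes changes under 1 log2 unit hard to detect at a single site. Estimates above that size did not pass either. A Cyp3a57 site at -1.65 and a Cyp7b1 site at 1.36 each had an edgeR adjusted p of 0.998.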
